A study of Rattus norvegicus with 22 samples.

Results

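The question followed here is whether the liver answered an enriched diet differently after a short and a long feeding period. All 22 arrays of the series entered it, 1 rat on each array, and for every probe the diet difference after 3 months was subtracted from the diet difference after 14 months, as (BD 14 minus CD 14) minus (BD 3 minus CD 3). This quantity is called the interaction below. A value above 0 means that the diet difference lay higher after 14 months than after 3, and a value below 0 means the reverse. Of the 30367 probes on the array, 19434 were well above background in the rat channel on every array of at least 1 group and were tested. They stood for 17085 genes when the brightest probe of each gene was taken.

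The animals were male Sprague–Dawley rats that were 8 weeks old when feeding began. Control diet (CD) and BASE-diet (BD) were both semi-synthetic, and the BASE-diet contained salmon fat (6%) replacing lard, hydrolysed linden extract (8%), pumpkin puree (8%) and 2 strains of probiotic bacteria. The share of the probiotic is not given here, since the labels and the diet composition in the methods differ on it. Group CD 3 held 5 rats on control diet for 3 months and BD 3 held 5 on BASE-diet for 3 months, while CD 14 and BD 14 each held 6 rats kept on those diets for 14 months. The diet and its duration were the conditions the labels give, with no other treatment. Each liver RNA was labelled with Cy5 and hybridised beside one common reference RNA in Cy3, taken from healthy rats of 10 weeks that were not in the experiment. Levels below are log2 ratios of rat over reference, so 1 unit is a doubling relative to that reference. The dyes follow the labels. The methods instead assign Cy3 to control and Cy5 to BASE-diet rats. Whole liver was used, and in bulk tissue fewer cells of a type and less RNA per cell cannot be told apart.

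The liver adapts its gene expression to dietary fat through ligand-activated and membrane-sensing transcription factors. Long-chain polyunsaturated fatty acids of fish oil activate PPARalpha, which drives fatty acid oxidation, and they restrain SREBP factors, which drive the synthesis of cholesterol and fatty acids. Carotenoids feed the retinoid pathway, and plant phenolics are handled by conjugating and antioxidant enzymes. With age the rat liver gains interferon-stimulated and inflammatory transcripts. A diet by time interaction asks whether any of these responses grew, faded or turned over with feeding time and age, which advanced together in this design.

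No probe passed the adjusted threshold for the interaction. With limma and Benjamini-Hochberg adjustment over all 19434 probes, 0 probes (0%) had an adjusted p under 0.05, and the lowest adjusted p was 0.808. Without adjustment, 932 probes (4.8%) had a p under 0.05, 482 above 0 (2.48%) and 450 below 0 (2.32%). A plain linear model of diet, time and their interaction, without moderation, also called 0 probes, with 980 at an unadjusted p under 0.05. The diet comparison itself called 0 probes at 3 months (1381 unadjusted, 7.11%) and 0 at 14 months (893 unadjusted, 4.6%). The count at 3 months was 93 without CD 3 replicate 5 and 221 from the Cy5 channel alone, that is without the reference. It was 589 under a choice of arrays described below. The count at 14 months was at most 1 on leaving out 1 array and 5 with array weights. In the main fit, limma on the ratios of all arrays, no single gene was called as changed, and the values below are estimates.

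The data limit the sizes that could be seen. The median half-width of the 95% interval of an interaction was 0.92 log2 units over the probes, and the median standard error was 0.44, compared with 0.33 for the diet difference at 3 months and 0.30 at 14 months. For 33.0% of probes the whole interval lay within 1 unit of 0, and for 85.4% within 2 units. With 5 or 6 arrays a group, an interaction under about 0.92 thus had an interval that held 0 at the median probe. That interval is unadjusted, and a call after adjustment over all probes asks for a larger difference. Interactions of more than a doubling also went uncalled, such as Gid8 below at -2.11, and equal responses were not shown.

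**Figure D1:**
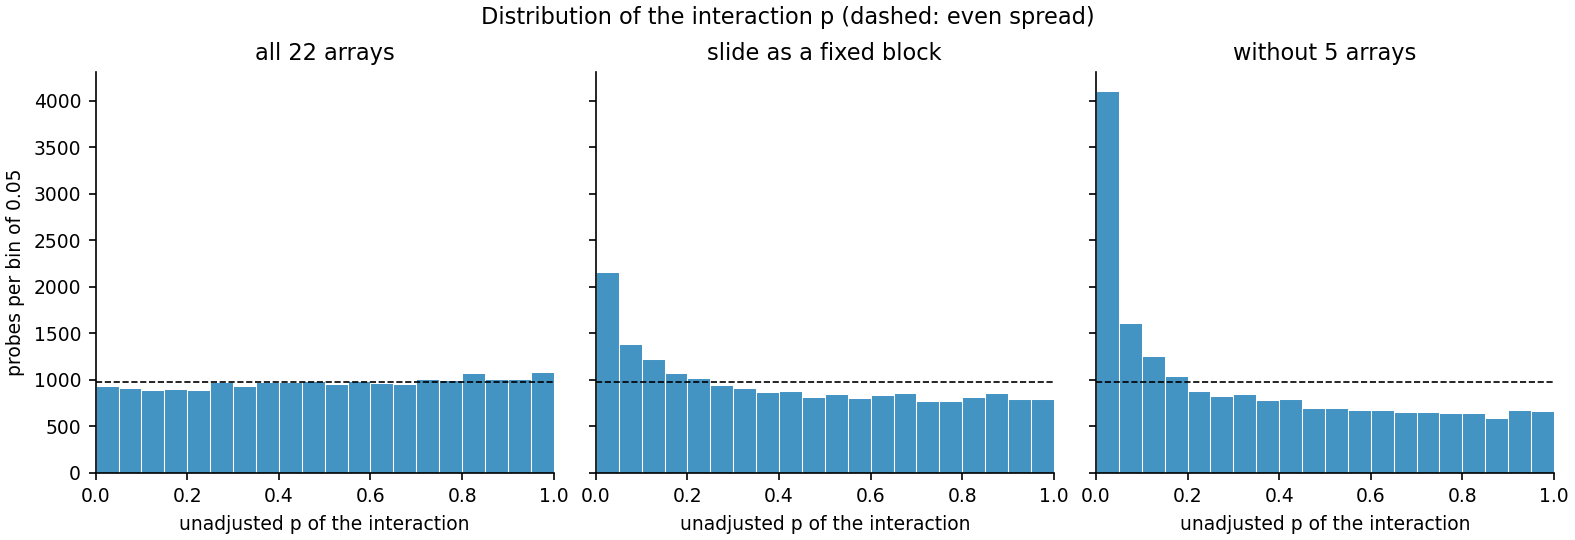
Number of probes in each bin of the unadjusted interaction p, with bins of 0.05 on the horizontal axis and probes on the vertical axis, for all 22 arrays, for the fit with slide as a fixed block and for the fit without 5 arrays. With all arrays the lowest bin held 932 probes, near the dashed line of an even spread, against 2161 with the slide block and 4102 without the 5 arrays.

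The arrays were hybridised on 5 slides, lettered A to E here, each with a scan day of its own, and the groups were unevenly spread over them. All 6 BD 14 arrays were on slide C with 2 of CD 14, and slide D carried 3 of CD 3 and nothing else. On slide A 3 of BD 3 lay beside 3 of CD 14, on slide B 2 of BD 3 beside 1 of CD 3, and on slide E 1 of CD 3 beside 1 of CD 14. Summing the weights of its arrays in the contrast gave -1.1 for slide A, -0.2 for B, 0.67 for C, 0.6 for D and 0.033 for E, where 0 would leave a slide's own shift without effect. No slide held all 4 groups, so no interaction could be taken within a slide. Slides B and C each held both diets at 1 time, and a fit with these 2 slides alone was also run. Its only CD 3 array was replicate 1, which had 4.44% of spots non-uniform. Values from slides B and C alone therefore rest on that array for CD 3 and are given as sizes only. With slide as a fixed block 0 probes were called, and with slide as a random block 0 as well (2161 and 502 unadjusted). The fixed block takes up the mean of slide D, which held no other group than CD 3. The 3 arrays of slide D then add nothing to the estimated interaction or diet difference at 3 months. In that fit the CD 3 level rests on replicate 1 (slide B) and replicate 5 (slide E).

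Some arrays stood apart. In Cy5, spots well above background made up 52.4% to 93.6% of an array in CD 3 and 69.1% to 74.3% in BD 14, and non-uniform spots made up 4.44% on CD 3 replicate 1 and 4.05% on CD 14 replicate 1 against at most 0.063% elsewhere. Without those 2 arrays the interaction called 0 probes (1239 unadjusted). The planned exclusion of arrays with over 3 times the median share of non-uniform spots removed 5 arrays (CD 3 replicates 1, 4 and 5, BD 3 replicate 2 and CD 14 replicate 1) and left CD 3 with 2 arrays of slide D. For the diet difference at 3 months that fit called 589 probes. For the interaction the fit without the 5 arrays called 781 probes, 593 above 0 and 188 below 0. With all 22 arrays 775 of them had the same sign. This adds no support, since the 2 fits share arrays and the calls were picked for large values. In that fit CD 3 and slide D cannot be told apart.

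Across the 17085 genes the estimated diet differences at the 2 times had a low correlation. The Pearson correlation between BD 3 minus CD 3 and BD 14 minus CD 14 was 0.14 across genes (Spearman 0.15). It is given as a description, since genes are not independent and slides A and E carried arrays of both times. The median size of a diet difference was 0.24 at 3 months and 0.20 at 14 months. The median standard errors were larger, at 0.32 and 0.29. Errors of that size pull a correlation towards 0, so how alike the diet responses were is not shown. The 2 differences had the same sign for 57.0% of genes, and the size at 3 months was the larger for 54.8%. At an unadjusted p under 0.05 at both times there were 47 genes. Of these 32 had 1 sign (22 higher and 10 lower on BASE-diet) and the others had opposite signs. With the main probe of each gene only, that level was passed by 1200 genes (7.02%) at 3 months and 710 (4.16%) at 14 months. Unrelated lists of such sizes also share genes, and whether 47 exceeds that was not tested. The 47 are therefore a count and do not show genes that answered the diet at both times. Of all genes 51.3% had an interaction above 0. Those past an unadjusted p of 0.05 were 373 above 0 (2.18%) and 406 below 0 (2.38%).

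**Figure D2:**
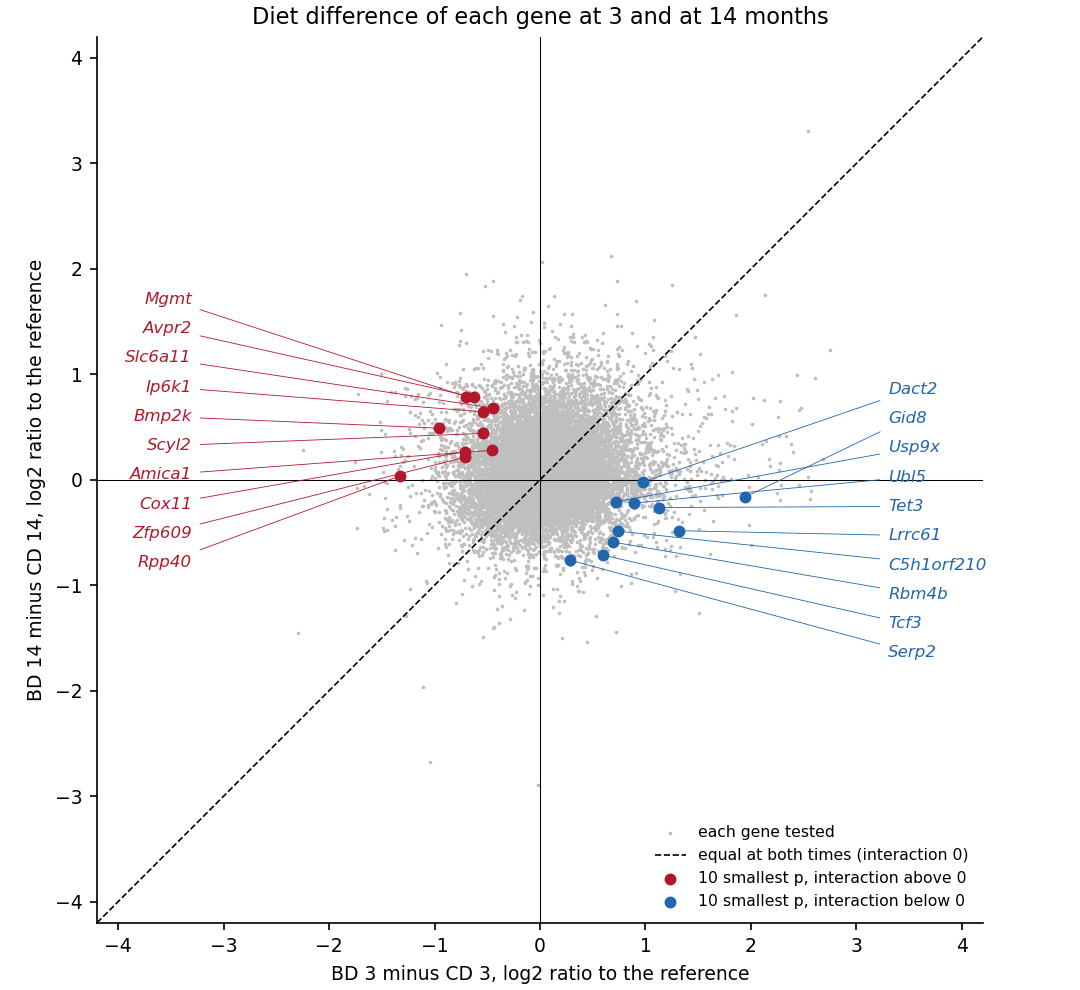
Diet difference of each of 17085 genes after 3 months (horizontal axis) and after 14 months (vertical axis), both in log2 ratio, with the line of equal difference dashed and 20 genes named. The red genes (interaction above 0) lie left of the vertical axis and at or above the horizontal one, and the blue genes (below 0) lie to the right of the vertical axis and below the horizontal one.

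The genes of the 2 directions differed in where their diet difference lay. Among the 373 genes above 0 at an unadjusted p under 0.05, the median diet difference was -0.56 at 3 months and 0.57 at 14 months, and 357 had opposite signs at the 2 times. Among the 406 below 0 the medians were 0.71 and -0.19, and 353 had the larger size at 3 months. These genes were chosen on the interaction itself, so the medians describe them and test nothing.

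The 10 genes with the smallest p above 0, among probes well above background on every array, were Bmp2k, Avpr2, Rpp40, Cox11, Ip6k1, Slc6a11, Zfp609, Scyl2, Amica1 and Mgmt. Their interactions ran from 0.73 to 1.49 and all had an adjusted p of 0.985. In all 10 the mean was lower on BASE-diet at 3 months and higher at 14 months, and their known roles range over kinases, transporters, RNA processing and DNA repair. Values of the first 4 follow on every array at 3 months, in the order of the replicates.

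Bmp2k (probe at chr14:13937551-13937610, build rn4), a kinase induced by bone morphogenetic protein 2, had levels of 0.042, 0.17, 0.72 and 0.46 in CD 3, where replicate 1 was left out as a non-uniform spot. In BD 3 they were -0.92, -1.01, -0.35, 0.084 and -0.85. In CD 14 they ran from -1.18 to -0.18 with a median of -0.67, and in BD 14 from -0.51 to 0.34 with a median of -0.30. BD 3 lay below CD 3 on all but 1 array, whereas the diets overlapped at 14 months with BD 14 the higher on average. The diet difference was -0.96 ± 0.26 (SE) at 3 months and 0.49 ± 0.23 at 14 months, an interaction of 1.45 (95% interval 0.72 to 2.17, limma unadjusted p = 0.000473). A dimmer probe of the same gene gave 0.43 ± 0.52.

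Avpr2 (chrX:159823429-159823488), the vasopressin receptor known for water retention in the kidney, had levels of -0.42, 0.55, 1.06, 0.91 and 0.58 in CD 3. In BD 3 they were 0.055, 0.19, -0.0084, 0.0075 and -0.71. CD 14 ran from -0.30 to 0.21 with a median of 0.11 and BD 14 from 0.37 to 1.51 with a median of 0.79. The diets did not overlap at 14 months, where every BD 14 array was the higher, and they overlapped at 3 months through CD 3 replicate 1. The interaction was 1.41 (95% interval 0.69 to 2.14, limma unadjusted p = 0.000567), and from the Cy5 channel alone it was 0.052.

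Rpp40 (chr17:35253820-35256114), a protein subunit of ribonuclease P, which trims transfer RNA precursors, had levels of 1.30, 1.13, 1.75, 1.69 and 0.15 in CD 3. On BASE-diet they were -0.26, 0.12, -0.37, -0.19 and 0.11 in BD 3. At 14 months CD 14 ran from -0.23 to 0.85 with a median of 0.30 and BD 14 from -0.076 to 0.81 with a median of 0.33. Here the diets did not overlap at 3 months, though by a narrow margin through CD 3 replicate 5, and had means of 0.34 and 0.38 in CD 14 and BD 14. The interaction was 1.36 (95% interval 0.60 to 2.12, limma unadjusted p = 0.00122) and was 0.42 with slide as a fixed block.

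Cox11 (chr10:79044907-79044966), a copper chaperone for the assembly of cytochrome c oxidase, had levels of 1.14, 0.86, 0.93, 1.06 and 0.13 in CD 3. In BD 3 they were 0.23, 0.16, 0.37, -0.054 and -0.13. CD 14 ran from 0.086 to 0.46 with a median of 0.28 and BD 14 from 0.19 to 1.08 with a median of 0.47. CD 3 replicate 5 was the low one of its group and made the diets overlap. The interaction was 0.98 (95% interval 0.42 to 1.53, limma unadjusted p = 0.00137) and 0.40 from the Cy5 channel alone, and 2 dimmer probes of the gene disagreed, with 0.56 ± 0.58 and -0.26 ± 0.68.

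Of the other 6 genes, Ip6k1, an inositol hexakisphosphate kinase, had an interaction of 1.18, but 0.12 from the Cy5 channel alone. Slc6a11, a GABA transporter, had 1.12, but 0.18 after the alternative background correction (normexp) and loess. Zfp609, a zinc finger protein, gave 0.93, which became -0.19 from the Cy5 channel alone. Scyl2, a protein of clathrin-coated vesicles, gave 0.98 (0.34 after normexp), and Amica1, an adhesion molecule of leukocytes, gave 0.73 (0.25). Mgmt, which removes alkyl groups from guanine in DNA, had means of 1.08 ± 0.57 (SD) in CD 3 and 0.38 ± 0.45 in BD 3, and of 0.66 ± 0.82 and 1.45 ± 0.34 in CD 14 and BD 14. Its interaction was 1.49 (95% interval 0.49 to 2.49, limma unadjusted p = 0.00532).

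**Figure D3:**
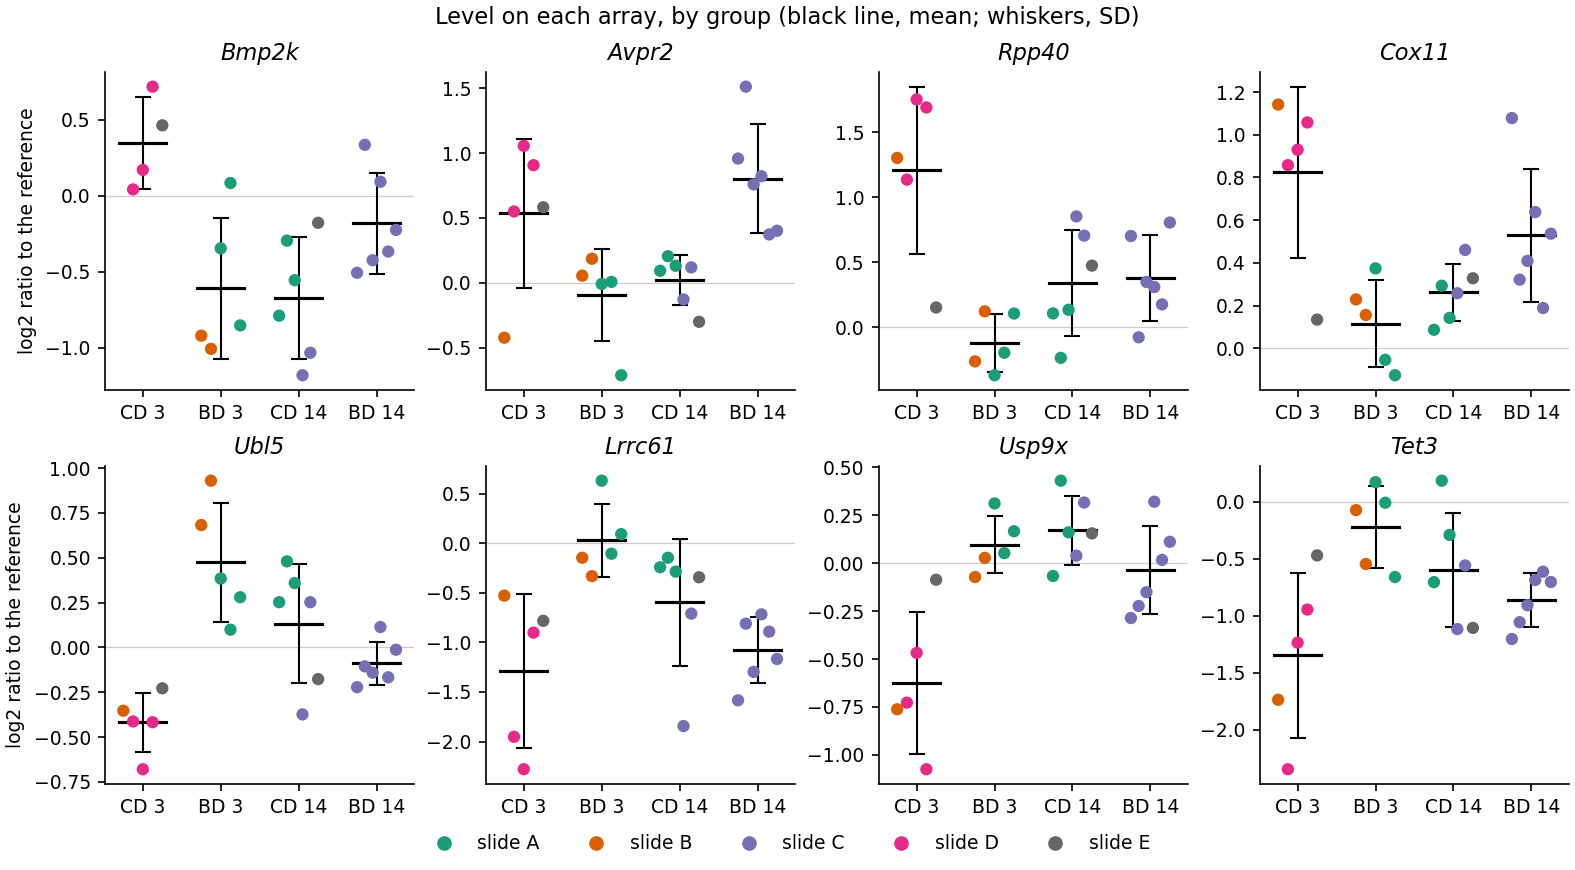
Log2 ratio to the reference on each array (vertical axis) by group (horizontal axis) for the first 4 genes of each direction, with points coloured by slide, the mean as a black line and the SD as whiskers. CD 3 stands apart from the other 3 groups in Rpp40 and Usp9x, apart from 1 array of slide E, and the BD 14 arrays all come from slide C.

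The 10 genes with the smallest p below 0 were Ubl5, Lrrc61, Usp9x, Tet3, Rbm4b, C5h1orf210, Tcf3, Dact2, Serp2 and Gid8. Their interactions ran from -2.11 to -0.93, again each with an adjusted p of 0.985. All 10 had a higher mean in BD 3 than in CD 3 and a lower mean in BD 14 than in CD 14. By background knowledge, Ubl5 and Rbm4b take part in splicing, Usp9x removes ubiquitin, Gid8 belongs to a ubiquitin ligase complex, Tet3 oxidises methylated cytosine and Tcf3 is a transcription factor. No share of such roles was tested.

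Ubl5 (chr8:19664216-19664415) had levels of -0.35, -0.41, -0.68, -0.42 and -0.23 in CD 3. On BASE-diet they were 0.68, 0.93, 0.38, 0.099 and 0.28 in BD 3. At 14 months CD 14 ran from -0.37 to 0.48 with a median of 0.25 and BD 14 from -0.22 to 0.11 with a median of -0.12. Every BD 3 array lay above every CD 3 array, and the diets overlapped at 14 months. The diet difference was 0.89 ± 0.19 at 3 months and -0.22 ± 0.17 at 14 months, an interaction of -1.11 (95% interval -1.64 to -0.59, limma unadjusted p = 0.000219), and -0.42 from the Cy5 channel alone.

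Lrrc61 (chr4:76660062-76660121), a leucine-rich repeat protein, had levels of -0.53, -1.95, -2.28, -0.90 and -0.78 in CD 3. On BASE-diet they were -0.15, -0.33, 0.63, -0.11 and 0.091 in BD 3. At 14 months CD 14 ran from -1.84 to -0.15 with a median of -0.32 and BD 14 from -1.58 to -0.72 with a median of -1.03. The lowest CD 3 values came from 2 arrays of slide D, and CD 14 replicate 4 lay far below the rest of its group. The interaction was -1.80 (95% interval -2.76 to -0.84, limma unadjusted p = 0.000814), -0.30 with slide as a fixed block and -0.091 from slides B and C alone.

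Usp9x (chrX:21606662-21606721) had levels of -0.76, -0.73, -0.47, -1.07 and -0.086 in CD 3. On BASE-diet they were -0.072, 0.028, 0.31, 0.052 and 0.17 in BD 3. At 14 months CD 14 ran from -0.067 to 0.43 with a median of 0.16 and BD 14 from -0.29 to 0.32 with a median of -0.067. CD 3 was the low group and did not overlap BD 3, whereas the other 3 groups shared a range. The interaction was -0.93 (95% interval -1.43 to -0.42, limma unadjusted p = 0.000973), but a second bright probe of the gene gave 0.24 ± 0.33, and the Cy5 channel alone gave -0.26.

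Tet3 (chr4:117621991-117622050) had levels of -1.74, -2.35, -1.24, -0.95 and -0.47 in CD 3. In BD 3 they were -0.074, -0.55, 0.17, -0.0090 and -0.66. CD 14 ran from -1.12 to 0.18 with a median of -0.63 and BD 14 from -1.20 to -0.61 with a median of -0.81. CD 3 replicate 5 overlapped the BD 3 range. The interaction was -1.39 (95% interval -2.23 to -0.54, limma unadjusted p = 0.00254), and from the Cy5 channel alone it turned to 0.38.

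Among the remaining 6, Gid8 had scattered CD 3 levels of -1.05, -1.02, -3.17, -3.96 and -0.044. Its other 3 groups lay between -0.37 and 0.34, and the interaction was -2.11 (95% interval -3.44 to -0.78, limma unadjusted p = 0.00347). Tcf3, also known as E2A, gave -1.32 from its brightest probe (-0.10 from the Cy5 channel alone) and 0.50 ± 0.27 from another, and Rbm4b gave -1.28. Dact2, which binds Dishevelled in Wnt signalling, gave -0.99, but 1.07 from the Cy5 channel alone, where Rbm4b also changed sign (0.058). C5h1orf210, an open reading frame, gave -1.22. Serp2, a small protein of the endoplasmic reticulum, gave -1.05 (-0.15 from the Cy5 channel alone) and did not overlap between the diets at 14 months, where BD 14 was the lower.

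**Figure D4:**
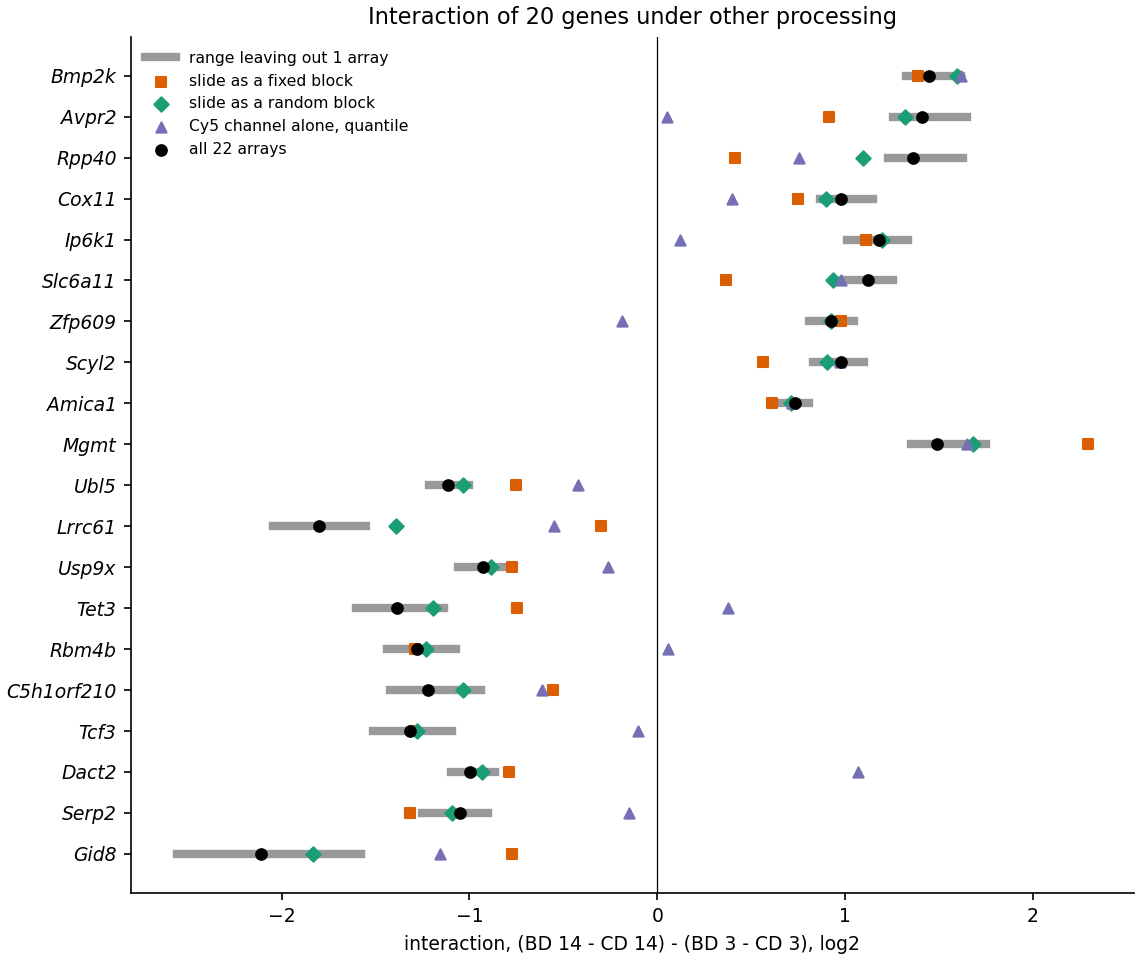
Interaction of the 20 genes (horizontal axis, log2) from all 22 arrays, with the range when 1 array is left out as a grey bar and the values under 3 other settings as coloured marks. No grey bar crosses 0, whereas Zfp609, Tet3, Rbm4b and Dact2 cross 0 from the Cy5 channel alone.

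Leaving out any 1 array kept the sign of all 20 genes, and 16 of them kept it under every alternative run for them, but the sizes moved. In the fit without the 5 arrays 24 of all 102 named genes passed the adjusted threshold. Of the 20 genes they were Avpr2, Rpp40, Ip6k1, Scyl2, Ubl5, Lrrc61, Usp9x, Tet3, C5h1orf210 and Gid8. As said above, CD 3 and slide D cannot be told apart in that fit. Beside the values given above, Bmp2k was 0.81 after normexp and loess and Mgmt was 0.94 without the 5 arrays. With slide as a fixed block Mgmt rose to 2.29, while Gid8 was -0.77 and C5h1orf210 was -0.55. The 20 were selected for small p in these arrays, so the stability of their signs describes the selection as well as the genes.

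A further 10 genes had probes above background in some groups only. Such a probe passed the filter through the groups where it was bright, so the way it was kept bears on the difference between its groups, and its values are given as a description with no test. In the sentences on these genes the range in brackets is the lowest and highest interaction over the alternatives run for it. Above 0 were Wdr7 at 1.44 (0.23 to 1.63), Tcf20 at 1.65 (-0.26 to 1.99), Wnt11 at 1.99 (0.42 to 2.79), Sfrp1 at 1.19 (-0.80 to 1.33) and Or4c52 at 1.53 (0.28 to 1.81). Below 0 were Fat4 at -2.33 (-3.12 to -0.097), Coch at -2.16 (-2.71 to -0.24), Vsig2 at -1.75 (-2.66 to 0.33), Adam34 at -2.11 (-2.67 to -0.33) and Lrrcc1 at -2.38 (-3.36 to -0.32). Tcf20, Sfrp1 and Vsig2 thus turned sign, and each of the 10 came within 1 unit of 0 under some alternative. In CD 3 only 1 of 5 arrays was well above background for each of Wdr7, Tcf20, Sfrp1, Coch, Adam34 and Lrrcc1, so the CD 3 level of these is not settled. For Adam34, a member of a family of membrane proteases, 4 of the 5 CD 3 values were exactly 0, which the scanner software writes where both channels hold surrogate values.

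Wnt11, a secreted ligand of the Wnt family, was the best detected of them, well above background on every array but 1 of BD 3. Its levels were 0.98, -0.14, 0.36, 0.53 and -0.43 in CD 3 and 0.56, 0.67, -0.36, -1.24 and -0.54 in BD 3. They ran from -1.69 to 0.53 with a median of -0.60 in CD 14 and from 0.57 to 1.60 with a median of 0.88 in BD 14. BD 14 was the high group here. After normexp and loess the interaction of Wnt11 was 0.42, and from the Cy5 channel alone it was 1.00.

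The direction of the interaction moved with the brightness of the probe. Among the dimmest of 4 equal classes of probes the median interaction was 0.29, and 331 were above 0 against 62 below at an unadjusted p under 0.05. In the second class the median was 0.087 with 121 against 100, in the third -0.051 with 18 against 158, and in the brightest -0.065 with 12 against 130. Probes above 0 at that level had a median log2 Cy5 signal of 5.15 and those below 0 one of 8.84, compared with 7.74 over all probes, while the median GC content of the probes was 45% in each of these sets. The filter on low signal bears on this, since a dim probe was kept only where some group lifted it above background. In the dimmest class 14.4% of probes were above background in all groups, against nearly all in the brightest, and such probes were 35.7% of the probes above 0 and 75.8% of those below 0. Among probes above background in all groups, 172 were above 0 and 341 below 0, with a median of 0.27 in the dimmest class (42 against 6), 0.10 in the second (100 against 50), -0.051 in the third (18 against 155) and -0.065 in the brightest (12 against 130). Among the others 310 were above 0 and 109 below 0, so the share above 0 over all probes depends on the filter. The part of brightness in the results for single genes was not tested.

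The 9 genes singled out by the study or by earlier results of these data were followed for their interaction, Wnt11 among them as given above. They were picked with results of these arrays known, so how many pass an unadjusted p says nothing about them. Acot1, a PPARalpha-driven thioesterase that cleaves long-chain acyl-CoA, had levels of -1.49, -1.59, -2.90, -2.07 and -1.69 in CD 3 and of 0.42, 1.53, -0.37, 1.40 and -0.010 in BD 3. CD 14 ran from -3.85 to -0.74 with a median of -2.77 and BD 14 from -1.78 to 2.04 with a median of 1.04. The Acot1 mean was higher on BASE-diet at both times, by 2.54 ± 0.63 and 3.31 ± 0.58, neither called after adjustment, and the difference between these was 0.76 (95% interval -1.01 to 2.54, limma unadjusted p = 0.382), with 0.19 in the deposited log2 values, 2.12 with slide as a fixed block and 0.48 to 1.25 on leaving out 1 array. The diets did not overlap at 3 months and overlapped at 14 months through BD 14 replicate 2.

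Nrg1, a growth factor that binds ErbB receptors, had a diet difference of 0.084 ± 0.36 at 3 months and 1.24 ± 0.33 at 14 months. BD 14 ran from 2.69 to 4.27 with a median of 3.03 and CD 14 from 1.07 to 2.57 with a median of 1.94, without overlap, and the 3-month groups overlapped. The interaction was 1.15, which was 0.18 from the Cy5 channel alone and 0.25 after normexp and loess. Dnmt3a, a de novo DNA methyltransferase, showed the opposite order, with levels of -1.96, -2.21, -3.90, -1.78 and -1.05 in CD 3 and -0.13, -0.72, 0.099, -0.15 and -0.81 in BD 3, which did not overlap. At 14 months CD 14 and BD 14 overlapped, with means of -0.98 ± 0.53 and -0.66 ± 0.31 (SD), and the interaction was -1.52, which turned to 0.19 from the Cy5 channel alone. Of the CD 3 arrays 3 of 5 were well above background for Dnmt3a and 4 of 5 for Nrg1, so these 2 probes also passed the filter through the other groups. In all, 24 of the 102 named genes were above background in some groups only, and their values and places by p are a description. Beside these 2 and the 10 described above they were Lpin1, Csnk1e, Fosl2, Cdk2, Esr1, Hbegf, Lhx4, Gzmb, Krt7, Klf1, Cpb1 and Fabp4, of which Esr1 was so on 2 of 5 arrays in CD 3, 2 of 5 in BD 3 and 3 of 6 in CD 14, and Fabp4 on 2 of 5 in CD 3.

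Lrp5, a coreceptor of Wnt signalling, had lower means on BASE-diet at both times, with diet differences of -0.62 ± 0.26 and -0.92 ± 0.24 and an interaction of -0.30 (95% interval -1.04 to 0.44, limma unadjusted p = 0.413). Isg15, a ubiquitin-like protein induced by interferon, had an interaction of 0.41 (95% interval -0.63 to 1.45, limma unadjusted p = 0.422), and Irf7, a transcription factor of the interferon response, had one of -0.063 (95% interval -1.30 to 1.18, limma unadjusted p = 0.917). Both had higher group means at 14 than at 3 months on either diet. Gpx1, the cytosolic glutathione peroxidase, gave 0.37 (95% interval -0.38 to 1.12, limma unadjusted p = 0.32) and Prodh, the first enzyme of proline breakdown, gave -0.078 (95% interval -1.12 to 0.96, limma unadjusted p = 0.877) and 0.60 ± 1.21 from a second probe. For these 5 genes the intervals held 0 and reached about 1 unit or more on 1 side, so neither an equal nor an unequal diet response was shown, and the sign of all but Gpx1 turned under some alternative. Gpx1 itself moved to 0.15 without CD 14 replicate 4 and to 1.28 with slides B and C alone.

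The functions were followed through 39 gene lists (27 pathways and complexes, 2 lists made from the study's own pathway genes, and 10 of cell type markers), each described by its counts and its median, beside the median interaction of 0.012 and the 51.3% above 0 over all genes. Of the 980 list members tested, each counted once, 124 were above background in some groups only. For the interaction with all arrays no member of any list was called, and without the 5 arrays named above 31 were (3.16%), against 4.02% of all probes. Leaving out 1 array turned the sign of 20 of the 39 list medians and moved each of the 39 by over 1.5 times, or turned it, at least once, so the medians below depend on single rats. Under some of the 34 alternatives run for the lists 31 of the 39 medians turned sign. Of the 102 named genes 45 turned under some alternative run for them, and 101 of the 102 turned or moved by over 1.5 times. In the paragraphs on the lists, the range in brackets after an interaction or a median interaction is therefore its lowest and highest value over the alternatives run for it. Where a number above 0 follows the range, it counts the list's tested members. At an unadjusted p under 0.05, counts of members are to be read against 2.18% above 0 and 2.38% below 0 over all genes. The median of a list of interactions need not equal the difference between the medians of the 2 diet differences.

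**Figure D5:**
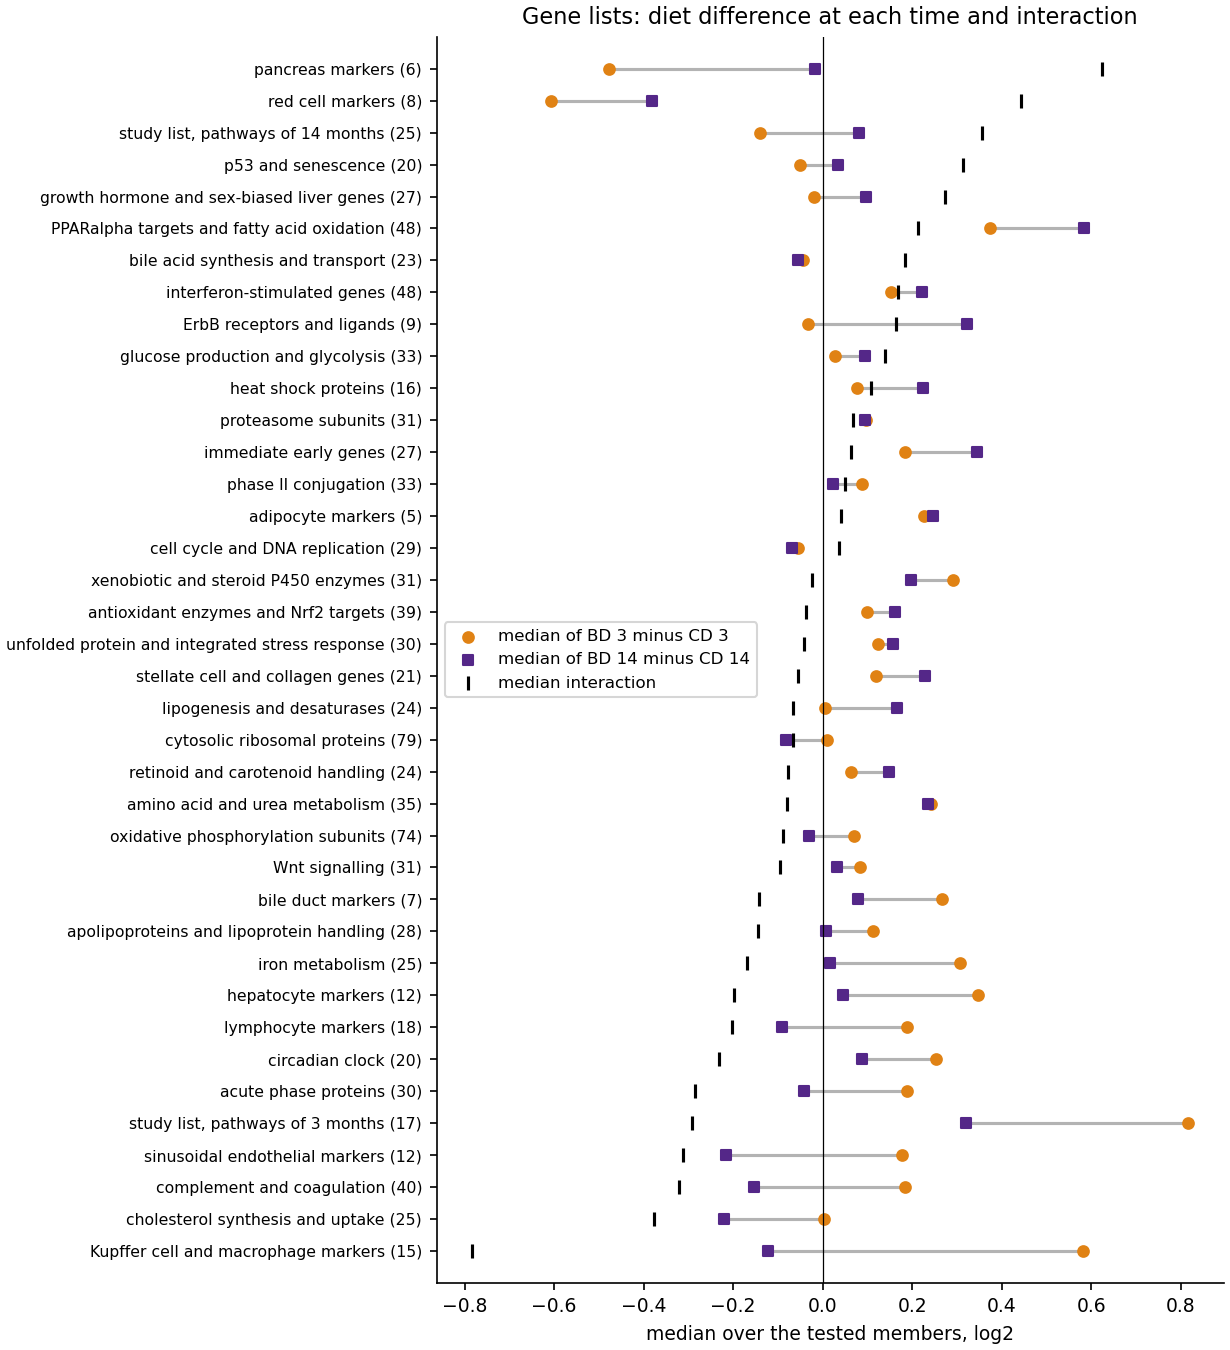
Median over the tested members (number in brackets) of the diet difference after 3 months (circles) and after 14 months (squares) and of the interaction (ticks), in log2, for the 38 lists with at least 5 tested members. Kupffer cell markers have the lowest median interaction, at -0.78, and PPARalpha targets lie above 0 at both times, at 0.37 and 0.58.

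PPARalpha targets and genes of fatty acid oxidation had medians above 0 on BASE-diet at both times, the larger at 14 months. The median diet difference of the 48 tested members was 0.37 at 3 months and 0.58 at 14 months, and the median interaction was 0.21, with 36 of 48 above 0. At 14 months 17 members, and at 3 months 7, were above 0 with an unadjusted p under 0.05, and none was below 0 at that level at either time. Over all probes 4.6% passed that level at 14 months and 7.11% at 3 months, in either direction. For the interaction itself only Acot5, an acyl-CoA thioesterase of peroxisomes, and Acadvl, the very long-chain acyl-CoA dehydrogenase of mitochondria, reached it, with 1.82 (-0.57 to 2.41) and 0.69 (-0.092 to 1.05). With slide as a fixed block these 2 turned to -0.26 and -0.092. The list's median stayed above 0 under each of the 34 alternatives run for it, from 0.091 to 0.53, the lowest without CD 3 replicate 2.

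Genes of cholesterol synthesis and uptake mostly had interactions below 0. Of the 25 tested members 21 were below 0, with a median of -0.38, although none reached an unadjusted p of 0.05. The median diet difference was 0.0035 at 3 months and -0.22 at 14 months. Ebp, a sterol isomerase, had an interaction of -0.47 (-0.77 to 0.17). At 14 months 4 members had an unadjusted p under 0.05, against 4.6% of all probes, and all 4 were lower on BASE-diet: Cyp51 (-0.91), Tm7sf2 (-1.49), Msmo1 (-0.65) and Ebp (-0.49), enzymes of the late steps from lanosterol onwards, of which all but Ebp were named after their values were seen. At 3 months these 4 were also below 0, at -0.42, -0.54, -0.52 and -0.027. The list's median stayed below 0 in the 34 alternatives run for it, from -1.20 to -0.065, and was -0.14 without CD 14 replicate 3. Its array medians ran from -0.63 to 0.32 in CD 3 and -0.33 to 0.31 in BD 3, and at 14 months from 0.24 to 1.37 on control diet and -0.23 to 1.01 on BASE-diet, so the groups overlapped at each time.

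The other lists of metabolism had smaller medians. Lipogenesis and desaturase genes had a median interaction of -0.066 (-0.52 to 0.52, 11 above 0) over 24 members, which was -0.52 from the Cy5 channel alone and 0.52 with slide as a fixed block. Among them Lpin1, a phosphatidate phosphatase and coactivator, gave 1.61 (-0.35 to 2.95) with a diet difference of 1.20 at 14 months, and Pklr, the liver pyruvate kinase, gave 0.84 (0.56 to 1.75). The probe of Lpin1 was dim, and from the Cy5 channel alone its value was -0.35. Apolipoproteins and lipoprotein handling had a median of -0.14 (-0.21 to 0.15, 10 above 0) over 28 members, with Tm6sf2, a regulator of lipoprotein secretion, at -0.55 (-0.69 to -0.031) and -0.18 ± 0.39 from a second probe. Bile acid genes had one of 0.19 (0.0038 to 0.49, 15 above 0) over 23, although Acox2, the peroxisomal oxidase of bile acid side chains, lay at -1.56 (-2.01 to -0.33) with a diet difference of 1.19 at 3 months, and Baat, which conjugates bile acids, lay at 0.50 (-0.098 to 0.72). Glucose production and glycolysis had 0.14 (0.090 to 0.34, 22 above 0) over 33 members, Pklr among them.

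Plasma proteins made by the liver had median interactions below 0 with all arrays. In the complement and coagulation list 31 of 40 members were below 0, with a median of -0.32 (-0.48 to -0.092) and medians of 0.18 at 3 months and -0.15 at 14 months. F9, coagulation factor IX, was at 1.12 (-0.31 to 1.44), the lowest from the Cy5 channel alone, and Cfd, the complement protease adipsin, was at -1.45 (-2.50 to -1.23). Of this list 1 member above 0 and 3 below 0 had an unadjusted p under 0.05, against 2.18% and 2.38% of all genes. Of 30 acute phase proteins 23 were below 0 with a median of -0.28 (-0.95 to -0.070), and the smallest p were those of Itih4, an inter-alpha-trypsin inhibitor heavy chain, at -0.58 (-1.16 to 0.044), and Ttr, the thyroxine carrier transthyretin, at -0.55 (-0.79 to 0.43). Itih4 turned from the Cy5 channel alone, and Ttr with slide as a fixed block (0.31) and with slides B and C alone. Without CD 3 replicate 4 the complement and coagulation median was -0.092 and the acute phase median -0.099. On that array the hepatocyte markers had a median of -2.11, far below the other CD 3 arrays, of which the nearest was -0.25. All 12 hepatocyte markers were tested, and their median interaction was -0.20 with 9 of 12 below 0, but 0.16 without CD 3 replicate 4 and 0.18 with slide as a fixed block. The part of hepatocyte transcripts in the plasma protein values was not tested.

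Macrophage markers held the lowest median of the lists. Of 15 tested markers of Kupffer cells, the resident macrophages of the liver, 12 were below 0 with a median interaction of -0.78, and 1, C1qc, reached an unadjusted p of 0.05. The median diet difference was 0.58 at 3 months and -0.12 at 14 months. C1qc, a chain of complement C1q, had an interaction of -1.15 (-1.57 to -0.84), the Kupffer lectin Clec4f -1.12, the scavenger receptor Cd163 -0.81 and Cd68 -0.96. The exceptions above 0 were Cd14 at 0.93 (0.24 to 1.48), Itgam at 0.16 and Lyz2 at 0.057. Of these, Clec4f, Cd163, Cd68, Itgam and Lyz2 were named after their values were seen. The array medians of the list ran from -2.87 to -0.42 in CD 3 and -1.95 to -0.33 in BD 3, and at 14 months from -0.85 to -0.059 on control diet and -1.58 to 0.050 on BASE-diet. The groups overlapped, and the lowest array was in CD 3. Over the 34 alternatives the list's median interaction stayed below 0, from -1.61 to -0.46, and was -0.46 without CD 3 replicate 3.

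The other cell types lay on both sides of 0. Sinusoidal endothelial markers had a median of -0.31 (-1.01 to -0.20) with 10 of 12 below 0, and Lyve1, the hyaluronan receptor of these cells, was at -1.24 (-2.33 to -0.87), Kdr, a receptor of vascular endothelial growth factor, at -0.87 (-1.59 to -0.25). Lymphocyte markers had -0.20 (-1.01 to 0.065, 5 above 0) over 18 members, with Gzmb at -0.94 (-2.13 to 2.66) and Ccl5 at -1.23 (-2.84 to -0.89). The list's median was 0.065 without CD 3 replicate 3, and Gzmb turned to 2.66 from the Cy5 channel alone. Stellate cell and collagen genes had -0.054 (-0.43 to 0.28, 9 above 0) over 21, with Pdgfrb, a receptor of activated stellate cells, at -1.01 (-1.30 to 0.078), above 0 from the Cy5 channel alone, and Reln at -0.87 (-1.21 to -0.013). Red cell markers lay above 0 for all 8 members, at a median of 0.44 (-0.11 to 0.70). Their diet differences were below 0 at 3 months for all 8, at a median of -0.61, and -0.38 at 14 months. Hbb-b1, a beta globin, was at 1.03 (-0.41 to 1.34) and Klf1, an erythroid transcription factor, at 0.55 (-0.72 to 1.33), and the globins share near-identical sequences. Without BD 3 replicate 5 the red cell median was 0.17, and with slides B and C alone it was -0.11.

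Some markers rested on few members. Those of bile duct had a median of -0.14 (-0.24 to 0.97, 2 above 0) over 7, with Krt7 at 0.54 (-0.33 to 0.97). Those of adipocytes had 0.042 (-0.18 to 0.65, 3 above 0) over 5, with Cfd as above and Fabp4 at 0.56 (-0.18 to 1.30), and those of neutrophils -0.12 (-1.04 to 0.45, 2 above 0) over 4. Those of exocrine pancreas had 0.62 (-1.22 to 1.17, 4 above 0) over 6 of 15 on the array, with Cpb1 at -1.55 (-3.34 to -0.45) and Ctrb1 at 0.92 (-0.88 to 1.31). The pancreas median was 0.024 without BD 3 replicate 5, -0.92 with slide as a fixed block and -1.22 with slides B and C alone. The array medians of these markers reached down to -2.52 in BD 14 and up to 0.82 in the same group. In hepatocyte markers Hnf4a, a factor of hepatocyte identity, was at 0.51 (-0.68 to 1.40), and at -0.22 with slide as a fixed block. The part of any cell type in the other results was not tested.

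Interferon-stimulated genes lay on both sides. Their median interaction was 0.17 (-0.51 to 0.30) with 28 of 48 above 0, and the median diet difference was 0.15 at 3 months and 0.22 at 14 months. Oas1i, of the oligoadenylate synthetase family, was at 1.48 (0.29 to 2.08) with a diet difference of -0.66 at 3 months and 0.82 at 14 months, and Cxcl10, a chemokine induced by interferon gamma, was at 1.76 (0.14 to 2.48). With slide as a fixed block the list's median became -0.16.

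Large protein complexes had medians within 0.1 of 0 with all arrays. The 74 subunits of oxidative phosphorylation had a median of -0.088 (-0.12 to 0.033, 28 above 0), and at an unadjusted p under 0.05 there were 1 above 0 and 6 below 0 (2.18% and 2.38% of all genes), among them Cox4i1, a subunit of cytochrome c oxidase, at -0.71 (-0.95 to 0.46), and Atp5j2, of the ATP synthase, at -0.52 (-0.67 to 0.17). Cox4i1 turned to 0.38 with slide as a fixed block. The 79 cytosolic ribosomal proteins had a median of -0.067 (-0.19 to 0.059, 28 above 0) with 3 below 0 at that level, with the smallest p for Rps27 at -0.60 (-0.88 to 0.11), and -0.39 ± 0.23 from its second probe, and for Rps12 at -0.61 (-0.88 to 0.25). The 31 proteasome subunits had a median of 0.067 (-0.39 to 0.17, 18 above 0), with Psmd7 at -0.54 (-0.71 to 0.45) and Psma6 at 0.35 (0.054 to 0.59). From the Cy5 channel alone the first 2 medians turned to 0.033 and 0.059.

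Enzymes of defence against oxidants and foreign compounds gave medians within 0.1 of 0 with all arrays, and all 4 lists turned sign under some alternative. The 39 antioxidant and Nrf2 target genes had -0.038 (-0.23 to 0.16, 18 above 0), with Gpx4, which reduces lipid peroxides, at -0.39 (-0.49 to -0.14) and -0.18 ± 0.26 from a second probe, and Nfe2l2, the gene of Nrf2 itself, at 0.35 (0.25 to 0.53). The 33 conjugating enzymes had 0.049 (-0.098 to 0.22, 20 above 0), with Gstk1 at -0.72 (-0.88 to -0.44) and Gstp1 at -0.62 (-1.29 to 0.71), both glutathione transferases. The 31 P450 enzymes had -0.025 (-0.28 to 0.51, 15 above 0), the highest with slides B and C alone, with Cyp1a2, an enzyme under the aryl hydrocarbon receptor, at -0.98 (-1.53 to -0.74) and Cyp2c6v1 at -0.81 (-1.34 to 0.78). The 24 genes of retinoid and carotenoid handling had -0.077 (-0.26 to 0.16, 11 above 0), with Rxrg, a retinoid X receptor, at -0.56 (-0.86 to -0.072) and Rdh7, a retinol dehydrogenase, at 0.71 (-0.054 to 1.85).

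Stress and growth pathways held single genes of larger size. Immediate early genes had a median of 0.064 (-0.25 to 0.38, 16 above 0) over 27 members, with Fosl2, an AP-1 subunit, at 1.55 (0.31 to 2.07) and 1.01 ± 0.43 from its second probe, and Ccn1 at 1.47 (0.35 to 3.14). The unfolded protein response had -0.042 (-0.22 to 0.17, 14 above 0) over 30, where the chaperones Hsp90b1 and Calr of the endoplasmic reticulum were higher on BASE-diet at 3 months by 1.12 and 1.17 and had interactions of -1.28 (-1.67 to 0.31) and -1.34 (-1.61 to 1.00). With slide as a fixed block these became 0.31 and 1.00. Heat shock proteins had 0.11 (-0.019 to 0.24, 11 above 0) over 16, with Hsf1 at 0.42 (-0.073 to 1.12) and Hsp90aa1 at 0.29 (-0.11 to 0.69), whose 2 other probes lay at -0.27 and -0.38. The p53 and senescence list had 0.31 (-0.56 to 0.41) over 20 with 11 above 0, Glb1 at -0.34 (-0.56 to -0.26) but 0.46 ± 0.58 from a dimmer probe, and Ccng1 at 0.88 (-1.34 to 1.16). The list turned to -0.27 with slide as a fixed block and -0.56 with slides B and C alone, and under the same choices Ccng1 was at -0.40 and -1.34. Cell cycle genes had 0.037 (-0.38 to 0.58, 17 above 0) over 29, with Cdk2 at -1.32 (-1.69 to 0.055) and Foxm1 at 0.62 (0.038 to 0.85).

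In the clock list the median was -0.23 (-0.37 to 0.25, 7 above 0) over 20, and it turned to 0.25 with slide as a fixed block. Its leading members were Csnk1e, a casein kinase that phosphorylates period proteins, at 0.78 (-0.21 to 1.39) from its brightest probe and -0.11 and -0.22 from 2 others, and Rora at 0.75 (0.34 to 0.93). Growth hormone and sex-biased liver genes had 0.27 (-0.19 to 0.37, 14 above 0) over 27, with Esr1, the oestrogen receptor, at 1.27 (0.14 to 2.06) and Cyp2a2, a male-biased P450, at -0.52 (-0.67 to 0.63). The list's median was 0.034 without CD 3 replicate 5, and Cyp2a2 turned to 0.63 with slide as a fixed block. Amino acid and urea genes had -0.078 (-0.22 to 0.52, 15 above 0) over 35, with Oat at -0.92 (-1.30 to -0.52) and Phgdh, the first enzyme of serine synthesis, at 1.51 (0.86 to 2.46). Iron genes had -0.17 (-0.41 to 0.067, 9 above 0) over 25, with Bmp2, a signal to hepcidin, at -1.13 (-1.56 to -0.53) and Hpx, which binds haem, at -0.59 (-1.05 to -0.28). Wnt signalling had -0.095 (-0.23 to 0.38, 14 above 0) over 31 members, with Wnt11 and Sfrp1 as given above. ErbB receptors and ligands had 0.16 (-0.30 to 0.56, 7 above 0) over 9, with Nrg1 as above and Hbegf at 0.79 (-0.22 to 1.02).

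The 2 lists made from the study's own pathway genes were chosen on these samples and are not independent evidence of a direction. Of the 22 genes listed for 3 months 17 were tested, with a median diet difference of 0.82 at 3 months and 0.32 at 14 months and a median interaction of -0.29, which turned to 0.12 with slide as a fixed block and 0.022 with slides B and C alone. Dnmt3a and Slc28a2, a nucleoside transporter, were at -1.52 (-2.40 to 0.19) and -1.53 (-2.31 to -0.99), and a second probe of Slc28a2 nearly as bright gave -0.60 ± 0.60. Of the 122 listed for 14 months only 25 passed the filter on low signal, with medians of -0.14 at 3 months and 0.082 at 14 months and a median interaction of 0.36. Wnt11 (above) and Lhx4, a homeobox factor, were named for their place by p, which is a description since both passed the filter through some groups only. Lhx4 was at 1.39 (0.27 to 1.92) with a diet difference of 1.04 at 14 months. From the Cy5 channel alone the second median was -0.13.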

How the data were processed

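Liver RNA of 22 rats was measured on two-colour Agilent arrays. The scanner intensities and log10 ratios were deposited as the authors' Feature Extraction software wrote them, background-subtracted and dye-normalized within each array by the software. The labels name version 10.7.3.1 and the file headers 10.10.1.1. Probes were annotated to rn4 per the file headers. The deposited table of log2 values holds 3017 entries that the authors had selected as significant, with a constant subtracted from each probe, and it was used as an alternative only. Its CD 3 columns did not follow the arrays of the same names, so they were used only as a group, and which rat each holds is not settled. Values of single CD 3 replicates come from the scanner files.

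Here the log10 ratios were turned into log2, control and non-uniform spots were dropped, and spots were averaged per probe, which left 698 of the tested probes without a value on some array. A probe was kept if some group had it well above background in the rat channel on each of its arrays. Group means were fitted for all 4 groups with limma 3.58.1 in R 4.3.3, and the interaction was tested two-sided with Benjamini-Hochberg adjustment. Tables and figures used Python 3.11.15 with pandas 2.3.3. The fit was tested on simulated data with independent normal noise and no slide effect. That test cannot show how the slides or single arrays bear on the results. The brightest probe stood for a gene.

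Named genes were the 10 with the smallest interaction p in each direction among probes above background on every array, the 5 in each direction among the other probes, the 2 with the smallest p of each list with at least 5 tested members, and 9 genes singled out by the study or by earlier results. A few genes that this rule names are not reported here. The members and lists were chosen with earlier results of these data known. Alternatives changed the normalization, the use of the reference, the filters, the model, the slide block, the rat number block and the arrays included. The number of arrays limits the precision. Groups came from the labels, with 1 rat an array, and the rat numbers did not pair the samples.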

Additional observations from a re-analysis of the deposited data

Results flagged for a closer look

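Each value here stood apart from the others of its group by Dixon's test at its 95% critical value. Of 188 groups of values tested 10 were marked, and chance marks about 1 in 20, or 9.4. No explanation was tested for them.

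At 3 months, Avpr2 was -0.71 on BD 3 replicate 5, where the nearest array of that group was -0.0084. Cox11 was 0.13 on CD 3 replicate 5 (nearest 0.86) and Mgmt 0.099 on CD 3 replicate 2 (nearest 1.20). Adam34 was 1.83 on CD 3 replicate 1, and the other 4 values were exactly 0. Beside 4 equal values any different value is marked, so this mark was fixed by the zeros. The median of the hepatocyte markers was -2.11 on CD 3 replicate 4 (nearest -0.25).

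At 14 months, replicate 4 of CD 14 held a low Lrrc61 value of -1.84 (nearest -0.71) and a C5h1orf210 value of -0.0099 (nearest 0.33). Replicate 2 of BD 14 held 3 of the marked values, with Tcf3 at -1.78 (nearest -0.56), Fat4 at -2.03 (nearest -0.91) and Nrg1 at 4.27 (nearest 3.15). Acot1 was also lowest on that array. Without it the BASE-diet difference of Acot1 at 14 months was 3.79, with an adjusted p of 0.00587 in limma against 0.153 with all arrays. Dropping the lowest value of the higher group raises the difference, so this only describes the dependence on that array.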

How the results depend on the processing

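The interaction called 0 probes with all arrays and under every alternative run for its count except 2. From the Cy5 channel alone it called 1 probe without a gene name (3.04, against -0.36 from the ratios), and it called 781 probes when the 5 arrays over 3 times the median share of non-uniform spots were left out. Leaving out each array in turn gave 0 calls throughout, with 719 to 1554 probes at an unadjusted p under 0.05. The diet comparison at 3 months called 221 probes from the Cy5 channel alone, 589 without the 5 arrays, 2 without the 2 arrays of over 1% non-uniform spots (Prkaca and a probe without a gene name), 2 with arrays centred on their median and 1 with the main probe of each gene only (probes without gene names) and 624 with slides B and C alone, where CD 3 is 1 array assumed to vary like the other groups. Leaving out 1 array gave 0 to 93 calls at 3 months, the most without CD 3 replicate 5, and 0 to 1 at 14 months, where the probe was Tcf20 without CD 3 replicate 2 and Acot1 without CD 14 replicate 1 or BD 14 replicate 2. With array weights limma called 5 probes at 14 months, of Acot1 (adjusted p 0.00777), of Disp1, Dctn4 and Acaa1a (each 0.0417), and of Tcf20. The probe of Tcf20 passed the filter through some groups only, so its calls here and on leaving out 1 array are a description. The settings without 2 and without 3 arrays and with slides B and C alone were chosen after seeing the data, as were the diet counts under settings other than the Cy5 channel alone, the slide blocks and leaving out 1 array. Where values moved, the cause was not tested.

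The rat numbers did not pair the samples, since deviations of 31 same-numbered pairs correlated at -0.26 to 0.29 with a median of -0.017. With the rat number as a replicate block the interaction called 0 probes (883 unadjusted), the diet comparisons 0 at both times, and no named gene changed sign.

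Of the 102 named genes 57 kept the sign of their interaction under every alternative run for them, as did 8 of the 39 list medians. List medians were not run under the other detection filters, the intensity trend, the plain model, the main probe only or the deposited values. Of the 39 list medians 5 turned sign after normexp and loess, 9 from the Cy5 channel alone and 7 with array weights. With slide as a fixed block 18 turned, as a random block 7, and without the 5 arrays 12. The lists named below are only those whose median moved by more than the pooled SD within groups of the list's array medians. Other lists turned sign without being named. The strict filter held 78 of the named genes, slides B and C 99 and the deposited values 22. After normexp and loess, list medians moved to 0.15 for the 14-month study list. From the Cy5 channel alone, the interaction changed sign to -0.19 for Zfp609, 0.38 for Tet3, 0.058 for Rbm4b, 1.07 for Dact2, -0.26 for Tcf20, -0.80 for Sfrp1, 0.33 for Vsig2, 0.17 for Ebp, -0.35 for Lpin1, -0.054 for Rdh7, 0.044 for Itih4, -0.31 for F9, -0.073 for Hsf1, 0.055 for Cdk2, 0.11 for Rps27, 0.19 for Dnmt3a, -0.42 for Hnf4a, 2.66 for Gzmb, 0.078 for Pdgfrb, -0.72 for Klf1, -0.22 for Ctrb1, 0.15 for Lrp5 and 0.38 for Prodh. There, list medians moved to -0.23 for antioxidant genes, -0.28 for P450 enzymes, 0.34 for glucose production and glycolysis, 0.58 for cell cycle and DNA replication, 0.033 for oxidative phosphorylation subunits, 0.059 for cytosolic ribosomal proteins, -0.30 for ErbB receptors and ligands, -0.13 for the 14-month study list and 0.38 for bile duct markers. With array weights, list medians moved to 0.25 for P450 enzymes. With slide as a fixed block, the interaction changed sign to -0.26 for Acot5, -0.092 for Acadvl, 0.31 for Gstp1, 0.31 for Ttr, 0.31 for Hsp90b1, 1.00 for Calr, -0.40 for Ccng1, 0.38 for Cox4i1, 0.25 for Rps12, 0.45 for Psmd7, 0.63 for Cyp2a2, -0.091 for Hbegf, -0.22 for Hnf4a, -0.50 for Ctrb1 and -0.0019 for Isg15. There, list medians moved to -0.82 for cholesterol genes, 0.31 for P450 enzymes, -0.16 for interferon-stimulated genes, -0.95 for acute phase proteins, 0.25 for circadian clock, -0.27 for p53 and senescence, -0.19 for cytosolic ribosomal proteins, -0.19 for proteasome subunits, 0.38 for Wnt signalling, -0.40 for iron metabolism, 0.12 for the 3-month study list, 0.52 for bile duct markers, -0.92 for pancreas markers and 0.65 for adipocyte markers. With slide as a random block, list medians moved to -0.011 for circadian clock, -0.0036 for p53 and senescence and 0.13 for Wnt signalling. With those 5 arrays left out, the interaction changed sign to -0.33 for Krt7, -0.18 for Fabp4 and 0.11 for Prodh. There, list medians moved to 0.53 for PPARalpha targets, 0.16 for antioxidant genes, 0.40 for bile acid synthesis and transport, 0.52 for amino acid and urea metabolism, 0.56 for ErbB receptors and ligands, 0.067 for iron metabolism, 0.15 for apolipoproteins and lipoprotein handling, -1.61 for Kupffer cell and macrophage markers, -1.01 for lymphocyte markers, -1.04 for neutrophil markers, -0.43 for stellate cell and collagen genes and -1.01 for sinusoidal endothelial markers. Without the 2 arrays of over 1% non-uniform spots, the interaction changed sign to 0.46 for Irf7 and 0.045 for Prodh. With slides B and C alone, the interaction changed sign to -0.57 for Acot5, -0.077 for Acadvl, 0.15 for Ebp, 0.71 for Gstp1, 0.78 for Cyp2c6v1, -0.098 for Baat, 0.43 for Ttr, -0.21 for Csnk1e, 0.53 for Calr, -0.11 for Hsp90aa1, -1.34 for Ccng1, 0.46 for Cox4i1, 0.17 for Atp5j2, 0.16 for Rps12, 0.0019 for Psmd7, 0.50 for Cyp2a2, -0.22 for Hbegf, -0.68 for Hnf4a, -0.41 for Hbb-b1, -0.88 for Ctrb1, 0.025 for Lrp5 and -0.70 for Isg15. There, list medians moved to -1.20 for cholesterol genes, -0.26 for retinoid and carotenoid handling, 0.51 for P450 enzymes, -0.51 for interferon-stimulated genes, -0.81 for acute phase proteins, -0.56 for p53 and senescence, -0.19 for cytosolic ribosomal proteins, -0.39 for proteasome subunits, -0.19 for growth hormone and sex-biased liver genes, 0.38 for Wnt signalling, -0.22 for ErbB receptors and ligands, -0.36 for iron metabolism, 0.022 for the 3-month study list, 0.025 for the 14-month study list, 0.28 for stellate cell and collagen genes, -0.90 for sinusoidal endothelial markers, 0.97 for bile duct markers and -1.22 for pancreas markers. Without those 2 and CD 3 replicate 4, the interaction changed sign to 0.26 for Irf7. There, list medians moved to 0.14 for antioxidant genes, 0.49 for bile acid synthesis and transport and 0.037 for apolipoproteins and lipoprotein handling. In the deposited log2 values, the interaction changed sign to 0.14 for Irf7.

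Leaving out 1 array moved the interaction of Irf7 over -0.31 to 0.24 and of Prodh over -0.25 to 0.19. It turned the sign of 20 of the 39 list medians. List medians ran from 0.091 to 0.34 for PPARalpha targets, -0.50 to -0.14 for cholesterol genes, -0.15 to 0.17 for lipogenesis and desaturases, -0.15 to 0.16 for retinoid and carotenoid handling, -0.18 to 0.10 for antioxidant enzymes and Nrf2 targets, -0.098 to 0.12 for phase II conjugation, -0.12 to 0.073 for xenobiotic and steroid P450 enzymes, 0.0058 to 0.44 for bile acid synthesis and transport, 0.037 to 0.28 for interferon-stimulated genes, -0.43 to -0.099 for acute phase proteins, -0.48 to -0.092 for complement and coagulation, -0.35 to -0.10 for circadian clock and 0.090 to 0.21 for glucose production and glycolysis. They ran from -0.17 to 0.20 for amino acid and urea metabolism, -0.17 to 0.14 for the unfolded protein response, -0.019 to 0.20 for heat shock proteins, -0.25 to 0.21 for immediate early genes, 0.11 to 0.41 for p53 and senescence, -0.14 to 0.37 for cell cycle and DNA replication, -0.10 to -0.041 for oxidative phosphorylation subunits, -0.13 to -0.043 for cytosolic ribosomal proteins, -0.027 to 0.17 for proteasome subunits, 0.034 to 0.34 for growth hormone and sex-biased liver genes, -0.20 to 0.077 for Wnt signalling, 0.13 to 0.41 for ErbB receptors and ligands and -0.41 to 0.015 for iron metabolism. The remaining medians ran from -0.21 to 0.082 for apolipoproteins and lipoprotein handling, -0.55 to -0.23 for the 3-month study list, 0.15 to 0.55 for the 14-month study list, -0.54 to 0.16 for hepatocyte markers, -1.11 to -0.46 for Kupffer cell and macrophage markers, -0.37 to 0.065 for lymphocyte markers, -0.52 to 0.45 for neutrophil markers, -0.24 to 0.17 for stellate cell and collagen genes, -0.44 to -0.20 for sinusoidal endothelial markers, -0.24 to 0.15 for bile duct markers, 0.17 to 0.70 for red cell markers, 0.024 to 1.17 for pancreas markers and -0.15 to 0.26 for adipocyte markers. The number of arrays limits the precision, and signals near background limit the dim probes.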
